A study of Mus musculus with 40 samples.

Results

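A set of 10 endothelial and angiogenesis genes was followed across 39 primary mammary tumors: the surface and junction genes Pecam1, Cdh5 and Eng, the receptor tyrosine kinase genes Kdr, Flt1, Flt4 and Tek, and the ligand genes Vegfa, Vegfc and Angpt2. The genes were taken by symbol, and all 10 of the 10 named genes had 1 row each among the 14318 genes of the expression table. The tumors were grown from the mouse triple-negative breast cancer lines 4T1 or 66cl4, injected through the nipple into the milk ducts of WT female BALB/c mothers whose pups had been weaned, and were removed at week 5 post inoculation. Each model had 4 groups: untreated, anti-PD-1 (200 µg per mouse per injection, an antibody against the T-cell checkpoint receptor PD-1), chitin (1 mg per mouse per injection, particles used to block chitinase-like proteins) and chitin + anti-PD-1. Every group had 5 tumors except untreated 4T1, which had 4 because the authors left out tumor 3 for degraded RNA. Each model is 1 injected cell line, and whole tumors were sequenced, so tumor cells, vessels and other host cells were measured together.

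Vascular endothelial growth factors are secreted proteins that bind receptor tyrosine kinases on endothelial cells. Vegfa acts mainly through Kdr (VEGFR2), which drives endothelial growth and sprouting, while Flt1 (VEGFR1) binds Vegfa tightly with weaker kinase activity and also exists as a soluble decoy. Vegfc acts mainly through Flt4 (VEGFR3), a receptor of lymphatic vessels that is also found on sprouting blood vessels of tumors. Tek (Tie2) is the receptor of the angiopoietins, which govern vessel stability, and Angpt2 is the context-dependent antagonist that endothelial cells release. Pecam1 (CD31) and Cdh5 (VE-cadherin) hold endothelial cells together, and Eng (endoglin) is a co-receptor for the TGF-beta and BMP family that is high on growing vessels and is also made by some stromal cells. Many tumor cells and macrophages secrete Vegfa, whose gene is a well-known target of the hypoxia-inducible factors.

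Levels are given below as normalised read counts (reads divided by the tumor's size factor), and differences between groups on the log2-like scale of the deposited variance-stabilised values, called VST units here. On this scale a doubling is worth 0.59 at 100 normalised counts and 0.92 at 1000, so that differences of weakly expressed genes are compressed. Total counts ran from 5105898 to 14800352 per tumor with a median of 6590274. All 24 pan-endothelial marker genes on a list that leaves out the 10 genes had a row in the table, which covers both models. Their lowest mean level was 22.4 normalised counts in 4T1 (Tal1) and 28.8 in 66cl4 (Sox7), so endothelial RNA was present in tumors of either line. The mean value of these markers in a tumor is called the endothelial index below. In whole tumors, fewer endothelial cells and less RNA per endothelial cell cannot be told apart.

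Promoter sequences help to place the genes that the results turn on. RefSeq (build GRCm38.p6) gave the 250 bases before the start of 7 of the 10 genes, namely Eng, Kdr, Flt1, Flt4, Tek, Vegfa and Vegfc. Shown here, each 5′ to 3′ on its gene's strand, are Flt1 (chr5:147726012-147726261, minus strand) and Eng (chr2:32646345-32646594, plus strand), which differed most between the models, Kdr (chr5:75978456-75978705, minus strand), one of the genes that varied together between 4T1 tumors, and Vegfa (chr17:46032378-46032627, minus strand), the ligand of Flt1 and Kdr. Capitals mark GGAA or its reverse complement TTCC, the core letters recognised by ETS factors, a family that contains the endothelial regulators Erg and Fli1.
Flt1: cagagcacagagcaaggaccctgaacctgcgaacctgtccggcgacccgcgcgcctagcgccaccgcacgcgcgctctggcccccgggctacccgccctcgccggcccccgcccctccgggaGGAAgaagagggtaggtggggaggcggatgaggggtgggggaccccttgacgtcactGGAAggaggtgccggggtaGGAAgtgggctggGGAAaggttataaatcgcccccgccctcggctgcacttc
Eng: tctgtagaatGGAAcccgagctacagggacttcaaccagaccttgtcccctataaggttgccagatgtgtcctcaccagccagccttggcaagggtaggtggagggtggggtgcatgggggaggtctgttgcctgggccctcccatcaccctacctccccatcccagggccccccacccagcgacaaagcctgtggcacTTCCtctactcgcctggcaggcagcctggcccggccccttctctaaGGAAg
Kdr: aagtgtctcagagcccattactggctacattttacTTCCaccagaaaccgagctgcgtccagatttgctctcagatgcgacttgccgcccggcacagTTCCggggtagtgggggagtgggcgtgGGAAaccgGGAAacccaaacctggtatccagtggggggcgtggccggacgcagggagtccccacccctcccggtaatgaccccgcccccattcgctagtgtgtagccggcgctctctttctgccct
Vegfa: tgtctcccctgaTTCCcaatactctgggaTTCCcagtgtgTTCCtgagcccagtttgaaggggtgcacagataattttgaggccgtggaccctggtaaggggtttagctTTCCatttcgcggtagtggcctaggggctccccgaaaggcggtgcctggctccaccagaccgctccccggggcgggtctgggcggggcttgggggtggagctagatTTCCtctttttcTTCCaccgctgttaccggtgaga
GGAA, counted on both strands, occurred 6 times before Vegfa, 4 times before Flt1, 4 times before Kdr, 3 times before Eng, 2 times each before Flt4 and Tek and 1 time before Vegfc. At least 1 match was present in 93.4% of 27025 promoters of the same length, with a median of 3, so these letters do not set the genes apart. ACGTG, the core of sites bound by hypoxia-inducible factors, occurred on neither strand in the 7 windows and in 16.6% of all promoters; no match says only that these letters are not in this window.

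In untreated 4T1 tumors the gene with the highest level per length was Eng, at 460.2 ± 109.6 normalised counts per kb of exon (SD, n = 4), followed by Vegfa at 256 ± 44.9, Cdh5 at 228 ± 159 and Pecam1 at 175 ± 79.9. The ranges of mean ± SD of Vegfa, Cdh5 and Pecam1 overlapped. Flt1 came next at 59.8 ± 5.88, ahead of Angpt2 at 43.3 ± 19.1, Kdr at 40.0 ± 27.4 and Vegfc at 36.6 ± 28.2, again with SDs that met. Tek at 17.7 ± 12.5 and Flt4 at 14.2 ± 8.97 were the lowest.
The order was another one in untreated 66cl4 tumors (n = 5), where Cdh5 led at 157 ± 20.4 counts per kb. Vegfc at 112 ± 35.7, Vegfa at 109 ± 34.1, Eng at 103 ± 16.6 and Pecam1 at 95 ± 15.6 followed without a gap beyond their SDs. Angpt2 stood at 37.4 ± 18.5, Kdr at 19.7 ± 3.52, Flt1 at 11.6 ± 3.37, Tek at 10.1 ± 2.17 and Flt4 at 5.40 ± 1.22. Vegfc thus ranked second in 66cl4 and eighth in 4T1 tumors. These levels rest on the whole exonic length of each gene and not on the isoform in use.

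**Figure D1:**
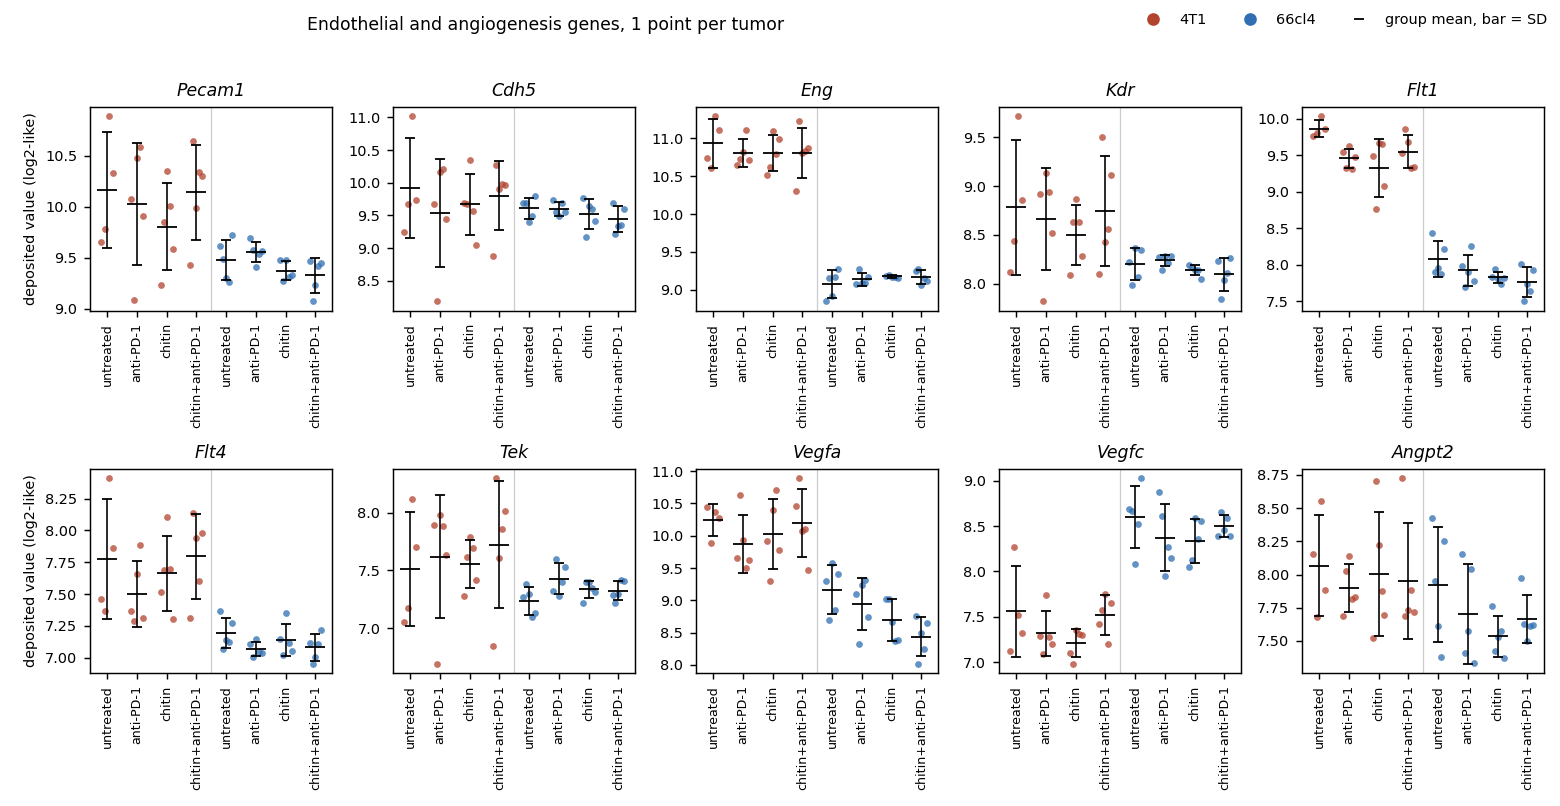
Deposited value (log2-like) of the 10 genes in each of 39 tumors, 1 panel per gene, with the 4 treatment groups of 4T1 on the left and of 66cl4 on the right. Points are tumors, black lines are group means and bars are SDs. Eng and Flt1 of all 19 4T1 tumors sit above all 20 66cl4 tumors, Vegfc is lower in 18 of 19, and the 4T1 points of Cdh5, Kdr, Pecam1 and Tek are far more scattered.

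The first comparison asked how the vasculature-related genes differed between the models. Over the mean of the 4 treatment groups, 8 of the 10 genes were higher and 1, Vegfc, was lower in 4T1 than in 66cl4 tumors (limma, adjusted p under 0.05 over 14318 genes), while Cdh5 did not pass. As the models differed in 78.8% of all genes tested (40.8% higher and 38% lower in 4T1), a count of 9 of 10 is near the background, and the sizes carry more information. The median absolute difference was 0.58 VST units for the 10 genes and 0.28 for all genes. The comparison of the untreated groups alone called 7 of the 10 genes (6 higher, 1 lower), beside 55.8% of all genes (28.7% higher, 27.1% lower, and 60.2% at an unadjusted p under 0.05). Cell line, tumor growth and any unrecorded difference in handling cannot be told apart between the models.

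Among the receptors, Flt1 differed most. In untreated tumors it stood at 744, 766, 922 and 798 normalised counts in 4T1 (tumors 1, 2, 4 and 5, in this order throughout) and at 227, 125, 133, 121 and 180.2 in 66cl4 (tumors 1 to 5). Over all groups it ran from 311 to 922 (median 618) in 19 4T1 tumors and from 72.5 to 227 (median 123) in 20 66cl4 tumors. The ranges did not overlap, which held for 17.9% of all genes (9.87% with 4T1 higher), and the mean count was 5.01-fold higher in 4T1, a difference of 1.65 ± 0.070 (SE), adjusted p = 2.74e-21.
Flt1 is encoded at chr5:147561604-147726011, minus strand (GRCm38, GENCODE M21). In the untreated tumors alone its difference was 1.79 ± 0.15 (SE), adjusted p = 1.76e-12, and every 4T1 tumor again lay above every 66cl4 tumor, which was so for 22.3% of all genes.

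Kdr and Flt4 showed smaller differences. Kdr (chr5:75932827-75978458, minus strand) stood at 161, 227, 715 and 342 counts in untreated 4T1 and 181, 139, 209, 152 and 207 in untreated 66cl4 tumors. Tumor 4, the highest value of all, was far above the other untreated 4T1 tumors, and tumor 1 lay within the 66cl4 range. Kdr was 1.82-fold higher in 4T1 over all groups, by 0.50 ± 0.12 (SE), adjusted p = 2.01e-04. In untreated tumors the difference of 0.59 ± 0.24 (SE), adjusted p = 0.0397 was lost without 4T1 tumor 4 (0.27, adjusted p = 0.329), without 4T1 tumor 5 (adjusted p = 0.0785), without 66cl4 tumor 1, 2 or 4 (adjusted p = 0.0545, 0.0819 and 0.0717), with only the untreated groups in the fit (adjusted p = 0.0802) and in limma-voom (adjusted p = 0.0503).
Flt4 (chr11:49609263-49652739, plus strand) was weakly expressed, at 68.6, 59.4, 220.4 and 119 counts in untreated 4T1 and 58.8, 34.4, 39.6, 38.6 and 50.7 in untreated 66cl4 tumors. The 2 untreated groups did not overlap, which held for 43.1% of all genes (22.3% with 4T1 higher). Over all groups 15 of 19 4T1 tumors lay above every 66cl4 tumor, and the difference was 0.56 ± 0.077 (SE), adjusted p = 4.6e-08, or 2.60-fold in mean counts.

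Tek, the angiopoietin receptor (chr4:94739289-94874976, plus strand), ran from 13.4 to 196 (median 95.8) in 4T1 and from 36.1 to 84.3 (median 54.6) in 66cl4 tumors. Thus 13 of 19 4T1 tumors lay above and 3 lay below every 66cl4 tumor, so that the 4T1 range enclosed the other. The mean difference of 0.27 ± 0.10 (SE), adjusted p = 0.0162 was the weakest call among the receptors and was lost in limma-voom on the read counts (adjusted p = 0.0713) and after quantile normalization (adjusted p = 0.065). In untreated tumors the difference was 0.28 ± 0.21 (SE), adjusted p = 0.276.

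Eng had the largest difference of the 10 genes in VST units, whereas in mean counts and in limma-voom Flt1 had the larger ratio. It stood at 1571, 1423, 2376 and 2081 counts in untreated 4T1 and at 338, 445, 359, 453 and 497 in untreated 66cl4 tumors. Across groups the values ran from 1134 to 2376 (median 1651) against from 338 to 497 (median 448). They did not overlap, which held for 17.9% of all genes (9.87% with 4T1 higher). The lowest 4T1 tumor, chitin + anti-PD-1 tumor 1, was thus still above the highest 66cl4 tumor. Mean counts were 3.92-fold higher in 4T1 (chr2:32646595-32682669, plus strand), with a difference of 1.70 ± 0.065 (SE), adjusted p = 1.03e-22 over all groups and 1.86 ± 0.13 (SE), adjusted p = 8.37e-14 in untreated tumors.

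The junction genes differed less. Pecam1 (chr11:106654217-106750628, minus strand) ran from 418 to 1765 (median 901) in 4T1 and from 414 to 715 (median 576) in 66cl4 tumors, a 1.72-fold difference in mean counts (0.60 ± 0.11 (SE), adjusted p = 1.54e-05). In untreated tumors its difference of 0.69 ± 0.24 (SE), adjusted p = 0.0149 was lost when 4T1 tumor 4 was left out (0.44, adjusted p = 0.121). Cdh5 (chr8:104101625-104144511, plus strand) ran from 174 to 1947 (median 703) in 4T1 and from 454 to 762 (median 637) in 66cl4 tumors.
Its 4T1 tumors were spread on both sides, with 8 of 19 above and 3 below every 66cl4 tumor. The difference of 0.19 ± 0.15 (SE), adjusted p = 0.238 had a 95% interval of -0.11 to 0.48, and among the alternatives it passed the test only with array weights (adjusted p = 0.0494) and without 4T1 anti-PD-1 tumor 2 (0.27, adjusted p = 0.0437).

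The ligands went in opposite directions. Vegfa (chr17:46016993-46032369, minus strand) stood at 1259, 824, 1198 and 1107 counts in untreated 4T1 and 504, 291, 640.1, 340.0 and 549.9 in untreated 66cl4 tumors. These groups did not overlap, which held for 43.1% of all genes (22.3% with 4T1 higher). Over all groups it ran from 507 to 1767 (median 948) against from 144 to 640.1 (median 309), and 16 of 19 4T1 tumors lay above every 66cl4 tumor. It was 2.92-fold higher in 4T1, by 1.28 ± 0.13 (SE), adjusted p = 3.82e-11, and the untreated tumors alone gave 1.08 ± 0.26 (SE), adjusted p = 8.25e-04.
Vegfc (chr8:54077606-54187096, plus strand) stood at 37.8, 191, 74.7 and 55.0 counts in untreated 4T1 and 289, 283, 155, 246 and 398 in untreated 66cl4 tumors. Only untreated 4T1 tumor 2 reached the 66cl4 range, and the other 18 4T1 tumors lay below every 66cl4 tumor. Mean counts were 3.51-fold higher in 66cl4, with a difference of -1.05 ± 0.090 (SE), adjusted p = 9.04e-13 over all groups and -1.04 ± 0.19 (SE), adjusted p = 1.8e-05 in untreated tumors.
Angpt2 (chr8:18690263-18741562, minus strand) ran from 74.9 to 301 (median 121) in 4T1 and from 56.1 to 224 (median 85.5) in 66cl4 tumors. The ranges overlapped almost entirely, and the difference of 0.27 ± 0.11 (SE), adjusted p = 0.0203 over all groups was not called after quantile normalization (adjusted p = 0.0697). In the untreated tumors it was 0.14 ± 0.22 (SE), adjusted p = 0.606.

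**Figure D2:**
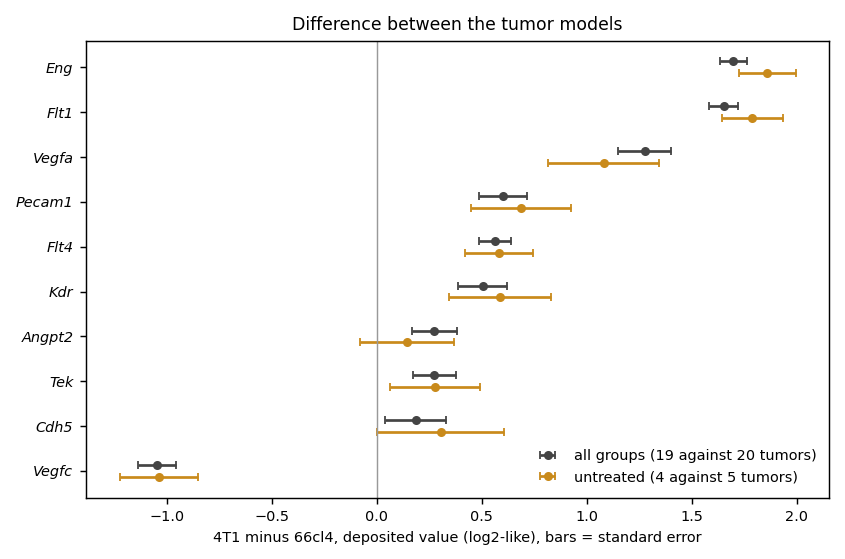
Difference between the models (4T1 minus 66cl4, deposited value, log2-like) for the 10 genes, with bars of 1 standard error. Grey points compare 19 with 20 tumors over all groups, and orange points compare the 4 and 5 untreated tumors. Eng, Flt1 and Vegfa lie farthest to the right and Vegfc is the only gene left of 0, in both comparisons.

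The 24 pan-endothelial markers gave a scale for these sizes. Of them, 21 were higher and 1 (Tal1) was lower in 4T1 over all groups, Sox17 and Cldn5 did not pass, and their median difference was 0.37 VST units; in untreated tumors 10 were higher and none was lower. The clearest were Egfl7 (0.80), Plvap (1.08), Ecscr (0.58) and Nos3 (0.52). Relative to the endothelial index of the same tumors, Eng remained higher in 4T1 by 1.31, Flt1 by 1.26 and Vegfa by 0.89. On this compressed scale Pecam1 (0.21), Flt4 (0.17), Kdr (0.12), Tek (-0.12), Angpt2 (-0.12) and Cdh5 (-0.20) differed little from it, and Vegfc was at -1.44. These relative values are descriptions with no test, and they mix genes of unlike level. In limma-voom the log2 difference was 1.28 for Flt4, 0.72 for Kdr, 0.70 for Pecam1, 0.57 for Angpt2, 0.50 for Tek and 0.20 for Cdh5.

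Other genes of the same pathways were counted from lists, and these counts stand beside the 78.8% of all genes that were called (40.8% higher in 4T1). Of 11 measured VEGF and angiopoietin pathway genes, 5 were higher and 4 lower in 4T1, led by the matrix proteins Svep1 (1.85) and Ccbe1 (1.36), of which Ccbe1 assists the maturation of Vegfc. The semaphorin and VEGF co-receptor Nrp2 was lower in 4T1 (-0.92 VST units), and Angptl4 was higher (0.76). Angpt1, the activating ligand of Tek, differed by 0.098 (adjusted p = 0.277). Of 13 Notch and sprouting genes, 11 were higher in 4T1 and none was lower, with Unc5b (1.69), Jag1 (1.25), Notch1 (0.59) and Hes1 (0.49).
Of 10 angiogenesis inhibitors, 8 were higher and 2 lower in 4T1; the clearest were Thbs2 (3.44), Thbs1 (-1.61), Timp3 (1.79) and Sema3f (1.33). Of 10 lymphatic markers, 5 were measured and Prox1, Mmrn1, Reln, Ccl21a and Stab2 had no row in the table used here. Lyve1, which macrophages also express, was lower in 4T1 (-3.98), as was Pdpn (-0.86), while Thy1 (1.83) and Fgl2 (0.67) were higher.

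Markers of other cells also differed between the models, beside the same 78.8% of all genes (40.8% higher and 38% lower in 4T1). Of 13 pericyte and smooth muscle genes, 8 were higher and 1 lower in 4T1 (Tagln 2.54, Acta2 2.24), and the pericyte genes were mixed. Cspg4 was higher (0.76) and Pdgfrb lower (-1.08), and Rgs5, Kcnj8, Abcc9 and Higd1b did not pass. Summed fibroblast marker counts ran 5694 to 180433 in 4T1 and 7210 to 18259 in 66cl4 tumors (6 of 9 higher, 1 lower), and summed adipocyte marker counts 222 to 16908 and 353 to 2968 (9 of 10 higher). Skeletal muscle markers summed to 194 to 10166 and 91 to 4328 (8 of 10 higher). Macrophage markers went the other way, at 5596 to 35057 and 26445 to 49918 (8 of 10 lower in 4T1).
Mammary epithelial markers (10 of 10 higher), neutrophil markers (8 of 9 higher), lactation markers (3 of 3 higher), platelet markers (2 higher and 1 lower of 3) and proliferation markers (1 higher and 6 lower of 10) differed too, and 7 of 14 hypoxia response genes were higher in 4T1, led by Egln3 (3.15). The part of these cells in the differences of the 10 genes was not tested.

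In VST units, tumors of the same group differed far more from one another in 4T1 than in 66cl4 for some of these genes. As the scale is compressed at low counts, SDs of 66cl4 tumors are lowered for genes with fewer counts there. The SD within groups of Tek was 0.47 VST units in 4T1 and 0.11 in 66cl4 tumors, a ratio of 4.34, and the ratios of Kdr (4.24), Cdh5 (3.68), Pecam1 (3.47) and Flt4 (3.19) were of the same order. For all genes the median ratio was 1.67. Eng had a ratio of 2.43, whereas Vegfa (1.32), Flt1 (1.28), Angpt2 (1.24) and Vegfc (1.02) were below the median. The endothelial index itself had a ratio of 5.60. Limma assumes 1 spread for both models, and with 1 weight per model, an alternative chosen after seeing these spreads, 9 and 7 genes were again called over all groups and in untreated tumors.

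**Figure D3:**
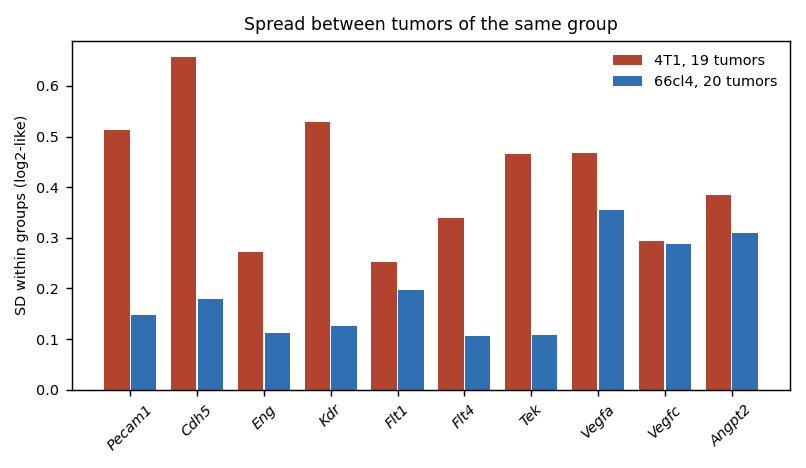
SD within groups (log2-like deposited values) of the 10 genes in 19 4T1 tumors and 20 66cl4 tumors, as bars from 0. The 4T1 bars are over 3 times as tall as the 66cl4 bars for Pecam1, Cdh5, Kdr, Flt4 and Tek, and about as tall for Vegfc.

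The low 4T1 values came largely from the same tumors. In anti-PD-1 tumor 2, Cdh5 stood at 174 against 573 to 1059.5 counts in the other 4 tumors of its group. Kdr stood there at 112 against 245 to 438, and Tek at 13.4 against 88.4 to 137. That low Tek value rested on 10 reads. The same tumor was within the range of its group for Eng (1558) and Flt1 (518), and its Vegfa, at 1455, was the highest of the group.
In chitin + anti-PD-1 tumor 1, Cdh5 was also low (350.0 against 834 to 1111), as was Tek (20.4 against 84.7 to 196), while Angpt2 was high (301 against 95.1 to 122). Untreated tumor 4 was the reverse, with the highest Cdh5 (1947), Kdr (715), Pecam1 (1765), Flt4 (220.4), Flt1 (922) and Eng (2376) of all 39 tumors. The endothelial index was 7.24 in anti-PD-1 tumor 2 and 8.60 in untreated tumor 4, beside 7.46 to 7.71 in all 66cl4 tumors.

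Deviations from the group means showed which genes moved together from tumor to tumor. In 4T1 (n = 19) Pecam1, Cdh5, Kdr, Flt4 and Tek formed one block, with Pearson's r of 0.94 for Pecam1 with Tek, 0.94 for Kdr with Tek, 0.90 for Pecam1 with Cdh5 and 0.77 or more for every other pair. Without the 2 tumors farthest from the median, r was 0.92 for Pecam1 with Tek and 0.67 for Flt4 with Tek. Eng joined it less tightly (r from 0.61 to 0.80). Vegfa stood apart, with r of -0.06 to Kdr and -0.07 to Pecam1, but 0.64, Spearman 0.57 to Flt1. With the 2 tumors farthest from the median of the other gene left out, these r were 0.11, 0.29 and 0.51.
In 66cl4 tumors (n = 20), whose spread was small, Pecam1 still went with Cdh5 (r = 0.79, Spearman 0.86), but Tek did not follow the others (r from -0.33 with Vegfa to 0.18 with Pecam1). Vegfa went there with Kdr (r = 0.75, Spearman 0.75) and Flt1 (0.71, Spearman 0.69), and Angpt2 with Flt1 (0.72, Spearman 0.67). These correlations are descriptions: the tumors share libraries and normalization, and the difference in r between the models was not tested.

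**Figure D4:**
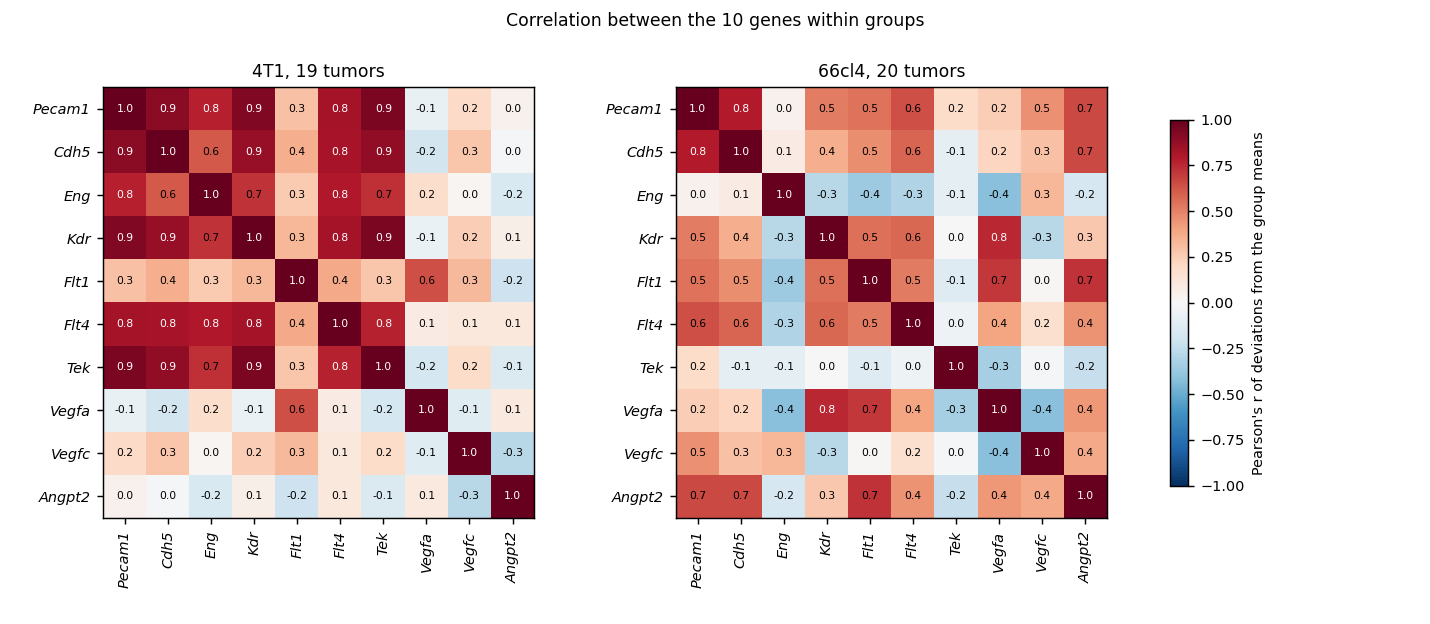
Pearson's r between the 10 genes over deviations of tumors from their group means, for 19 4T1 tumors (left) and 20 66cl4 tumors (right), red for positive and blue for negative values. The block of Pecam1, Cdh5, Kdr, Flt4 and Tek, with Eng, is red throughout in 4T1 and is broken at Eng and Tek in 66cl4.

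Likeness was measured by Pearson's r of the deviations from group means over all 39 tumors, so that differences between groups and models do not enter it. Pecam1 was closest to Tie1, Cd34 and S1pr1 (r from 0.92 to 0.93), Cdh5 to Ldb2, Adgrl4 and Robo4 (r from 0.90 to 0.92), and Tek to Gas6, Stard8 and Aplnr (r from 0.91 to 0.92). Kdr was closest to Lama4, S1pr1 and Pecam1 (r from 0.90 to 0.91), and Flt4 to Nid2, Dchs1 and Apold1 (r from 0.84 to 0.88). Tie1 and Cd34, near Pecam1, and Adgrl4 and Robo4, near Cdh5, are known endothelial genes.
Vegfa was closest to Ero1a, Slc16a3 and Pgk1 (r from 0.78 to 0.86), and Ero1a and Pgk1 are on the list of hypoxia response genes. Angpt2 was closest to Esm1, Ikbkg and Atp8b3 (r from 0.69 to 0.75), and Esm1 is a tip-cell gene. Eng was closest to Epas1, Prickle1 and Pde1a (r of 0.77 for each), and Vegfc to Plppr2, Rassf8 and Fzd2 (r from 0.64 to 0.66). Many of these values were weaker in 66cl4 alone. For Tek with Gas6, r was 0.95 in 4T1 and 0.39 in 66cl4. It was 0.98 and 0.49 for Pecam1 with Cd34, and 0.82 and 0.34 for Eng with Epas1. Among the pairs named, r was higher in 66cl4 only for Vegfa with Slc16a3 (0.815 and 0.823), Vegfc with Fzd2 (0.54 and 0.74) and Angpt2 with Esm1 (0.64 and 0.91).

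Marker lists of other cells followed the endothelial block in 4T1 tumors. The endothelial index had r of 0.84 with the pericyte list, 0.77 with the macrophage list, 0.76 with the fibroblast list, 0.59 with the adipocyte list and 0.56 with the skeletal muscle list (n = 19), and 0.59, -0.05, 0.18, 0.32 and -0.16 in 66cl4 (n = 20). The hypoxia list followed Vegfa instead, with r of 0.90 in 4T1 and 0.47 in 66cl4. Tek had r of -0.49 with the same list in 4T1. Angpt2 had r of 0.14 with it in 4T1 and 0.82 in 66cl4. The part of host tissue and of hypoxia in the values of the 10 genes was not tested.

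The treatment comparisons asked whether chitin, anti-PD-1 or both changed these genes. None of the 10 passed the test in any of the 8 comparisons within a model, and none did so under any alternative or with any tumor left out. Nor did any of the 14318 genes by limma or limma-voom (0% of genes called in each), although 367 to 2238 genes had an unadjusted p under 0.05 by limma and 299 to 2130 by limma-voom. By limma these were 8.89% of genes for anti-PD-1, 2.77% for chitin and 2.56% for chitin + anti-PD-1 in 4T1, of which Flt1 was the only one of the 10 for the first 2, and none of the 10 was among them for the third. In 66cl4 they were 5.36% (1 of the 10), 11.4% (3 of the 10) and 10.6% (2 of the 10). Where both 4T1 groups given chitin were set against the remaining 4T1 tumors, they were 7.28% (none of the 10). The 3 comparisons with untreated tumors in a model share those tumors.

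In 4T1 the values farthest from untreated were those of Flt1. Its counts were 744, 766, 922 and 798 in untreated, 618, 518, 662, 507 and 587 in anti-PD-1, 589.8, 311, 683, 681 and 414 in chitin and 616, 797, 693, 518 and 524 in chitin + anti-PD-1 tumors. All 4 untreated tumors lay above all anti-PD-1 and all chitin tumors, which held in the same direction for 1.11% and 0.314% of all genes, and 1 chitin + anti-PD-1 tumor reached the untreated range. The differences from untreated were -0.41 ± 0.16 for anti-PD-1 (unadjusted p = 0.0205, adjusted p = 0.523), -0.54 ± 0.16 for chitin (unadjusted p = 0.00369, adjusted p = 1) and -0.32 ± 0.16 for chitin + anti-PD-1 (adjusted p = 1). Hypoxia genes lay on the same side, with 12 of 14 negative for anti-PD-1 (median -0.69), 14 of 14 for chitin (-0.24) and 11 of 14 for chitin + anti-PD-1 (-0.11), beside a median near 0 for all genes. Adipocyte markers were positive in 10 of 10 for each treatment, with medians of 1.59, 0.66 and 0.66. No gene of either list passed, and their part in the Flt1 values was not tested. The adjusted p of Flt1 for chitin lay between 0.497 and 1 over the alternatives. The chitin-containing groups against the others differed by -0.22 ± 0.11 (SE), adjusted p = 0.70.

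The endothelial block in 4T1 gave no call and wide intervals. The chitin-containing groups (10 tumors) differed from the others (9 tumors) by -0.12 ± 0.22 in Pecam1, 0.010 ± 0.28 in Cdh5, -0.10 ± 0.22 in Kdr and 0.077 ± 0.20 in Tek. Their 95% intervals were -0.58 to 0.34, -0.57 to 0.59, -0.58 to 0.37 and -0.34 to 0.49. Eng differed by -0.061 ± 0.12, Flt4 by 0.090 ± 0.15, Vegfc by -0.072 ± 0.13 and Angpt2 by -0.0064 ± 0.16, with adjusted p of at least 0.948. The others in this comparison include the anti-PD-1 tumors. Against untreated 4T1 tumors alone, 9 of the 10 genes were negative for anti-PD-1 (median -0.21) and 9 for chitin (-0.23). For chitin + anti-PD-1, 8 were negative (-0.044). Of all genes, 49.6%, 48.9% and 49.6% were positive in these comparisons. The 10 genes partly vary together, so their signs are not independent.
Vegfa ran from 599 to 1455 in anti-PD-1, 507 to 1539 in chitin and 584 to 1767 in chitin + anti-PD-1 4T1 tumors, beside 824 to 1259 in untreated ones. For Vegfa the chitin-containing groups differed from the others, anti-PD-1 tumors included, by 0.055 ± 0.20 (adjusted p = 0.986). Its mean value was 10.25 VST units in untreated, 9.87 in anti-PD-1, 10.02 in chitin and 10.20 in chitin + anti-PD-1 tumors. Mean counts were 1097, 849, 973 and 1111 in the same order. The sign changed for several of these genes when single tumors were left out.

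Of the 10 genes in 66cl4, Vegfa had the largest chitin difference. Its counts were 504, 291, 640.1, 340.0 and 549.9 in untreated, 426, 202, 475, 511 and 305 in anti-PD-1, 396, 397, 285, 212 and 216 in chitin and 313, 144, 241, 185 and 278 in chitin + anti-PD-1 tumors. The groups overlapped, but 4 of 5 chitin + anti-PD-1 tumors lay below every untreated tumor. The chitin-containing groups were at 267 and the others at 425 counts on average, a difference of -0.49 ± 0.14 with an interval of -0.79 to -0.19 (unadjusted p = 0.00268, adjusted p = 0.139). The adjusted p lay between 0.0736 and 0.724 over the alternatives. From untreated, anti-PD-1 tumors differed by -0.22 ± 0.20, chitin tumors by -0.47 ± 0.20 and chitin + anti-PD-1 tumors by -0.73 ± 0.20 (adjusted p = 0.934, 0.372 and 0.278).

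Of the 10 genes, 9 had a negative chitin difference in 66cl4 tumors (with Tek near 0 and positive at equal read depth), while 51.5% of all genes had a positive one. Some of the 9 vary together, so their signs are not independent. An unadjusted p under 0.05 was found for 3 of the 9, beside 15.6% of all genes. These were Vegfa, Pecam1 (-0.17 ± 0.063, adjusted p = 0.214) and Flt1 (-0.20 ± 0.081, adjusted p = 0.239). Pecam1 ran from 487 to 715 counts in untreated, 555 to 701 in anti-PD-1, 494 to 586 in chitin and 414 to 579.7 in chitin + anti-PD-1 tumors. Angpt2 (-0.21 ± 0.13), Cdh5 (-0.13 ± 0.074), Kdr (-0.10 ± 0.054), Vegfc (-0.068 ± 0.12), Flt4 (-0.021 ± 0.048) and Tek (-0.0012 ± 0.049) did not pass either. The intervals of Tek (-0.10 to 0.10) and Flt4 (-0.12 to 0.079) were narrow, and Eng, at 0.068 ± 0.049, was the only positive value.
With anti-PD-1 alone, Tek stood at 55.2, 84.3, 51.1, 62.5 and 76.4 counts in 66cl4 tumors beside 50.1, 60.8, 52.8, 36.1 and 38.7 in untreated ones, a difference of 0.19 ± 0.069 (unadjusted p = 0.0104, adjusted p = 0.895).

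Hypoxia genes had values of the same sign as Vegfa in the chitin-containing 66cl4 groups. Of 14 genes, 13 were negative with a median of -0.29, among them Egln3 (-0.82, adjusted p = 0.0769), Slc2a1 (-0.51) and Ndrg1 (-0.34), and none passed. In the same comparison of 4T1, 8 of the 14 were positive and 6 negative, but between 11 and 14 of them were negative in each treated 4T1 group against untreated (above). Macrophage markers in 66cl4 were positive in 8 of 10, and their summed counts ran 26445 to 39134 in untreated and 40180 to 49918 in chitin + anti-PD-1 tumors. The median depth was 6064018 and 6166518 reads in the untreated and anti-PD-1 groups of 66cl4 but 10250227 with chitin and 8985408 with both agents, and at equal depth the Vegfa difference was -0.48. The part of these in the Vegfa difference was not tested beyond that value.

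**Figure D5:**
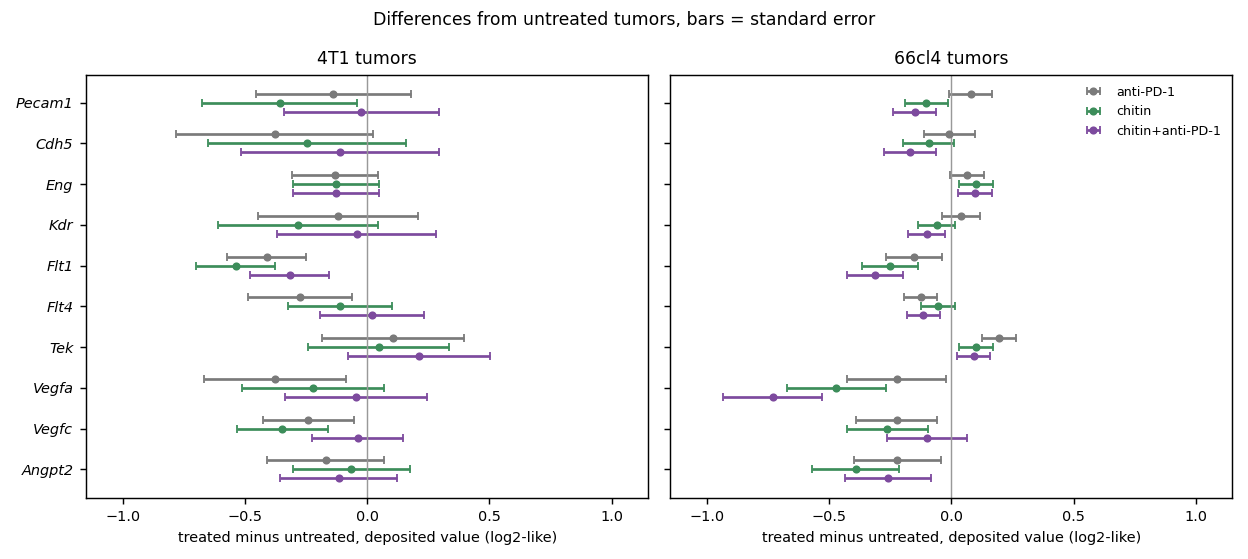
Difference of each treated group from the untreated tumors of the same model (deposited value, log2-like) for the 10 genes, with bars of 1 standard error; 4T1 left, 66cl4 right. Flt1 lies left of 0 for all 3 treatments in both models and Vegfa of 66cl4 reaches -0.73 with chitin + anti-PD-1, but no point passed the test.

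Whether the models responded differently was tested directly. The chitin difference was called as unequal between the models for 14 genes (0.0978% of all; 0.021% more positive and 0.0768% more negative in 4T1) and for none of the 10 by limma. The anti-PD-1 difference was called for no gene by limma or limma-voom, and 7.27% of genes (1041) by limma and 822 by limma-voom had an unadjusted p under 0.05. Among the 10 genes the largest value was that of Vegfa, whose chitin difference was 0.54 ± 0.25 (SE), adjusted p = 0.346 higher in 4T1 than in 66cl4, with an interval of 0.030 to 1.06. For Flt1 the models differed by -0.018 ± 0.14 (SE), adjusted p = 0.972. The anti-PD-1 difference of Flt1 was -0.26 ± 0.20 (SE), adjusted p = 0.783 between the models.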

How the data were processed

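Bulk RNA-seq was measured in 39 tumors. Per the labels and the methods, the authors extracted total RNA, made stranded libraries, mapped reads to mm10 with HISAT2 and counted them per gene. The deposited table holds log2-like values from the variance-stabilising transformation of DESeq2, made by the authors. Inverting it gave whole reads for 100% of values (tolerance 0.001). These recovered counts and their size factors gave normalised counts and depth (5105898 to 14800352 reads). The table held 59 genes without a symbol, which were tested too. Groups came from the labels, and p-values measure the spread between tumors. The paper inoculated a pair of mammary glands in each mouse. The labels used here do not name the mouse, so whether tumors of a group shared a mouse is not known, and tumors were treated as independent.

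Limma 3.58.1 in R 4.3.3 (lmFit, contrasts, eBayes with trend) was fitted to the deposited values, per model for treatments and over 8 groups between models, with Benjamini-Hochberg adjustment over 14318 genes at 0.05. The procedure was tested on simulated data. Named were all 10 genes, up to 4 list genes with the smallest adjusted p between models and the 3 genes most correlated with each of the 10, except for Flt1, for which they are not reported here. Other genes named beside them were chosen after their values were seen. The 10 genes and all lists were chosen with earlier results of these data known. Alternatives were a filter on the lowest 25% of genes, no trend, other samples in the fit, median centring, quantile normalization, array weights, 1 weight per model (chosen after seeing the data), a replicate block, limma-voom on the recovered reads, equal read depth and leaving out each tumor. Positions are those of GENCODE M21 (GRCm38). No batch is given in the labels.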

Additional observations from a re-analysis of the deposited data

Results flagged for a closer look

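In groups of 4 or 5 tumors, 80 sets of values (10 genes in 8 groups) were searched for a highest or lowest tumor far from the rest, and 4 were found, all in groups of 5. Chance marks about 1 in 20 such sets, which is as many. Cdh5 in 4T1 chitin + anti-PD-1 tumor 1 had a value of 8.89 (350.0 normalised counts), below the 9.91 to 10.28 of the other 4 tumors. Angpt2 in the same tumor had a value of 8.73 (301 counts), above the 7.69 to 7.88 of the others. Tek in 4T1 anti-PD-1 tumor 2 had a value of 6.69 (13.4 counts), below 7.64 to 7.98. Angpt2 in 66cl4 chitin + anti-PD-1 tumor 1 had a value of 7.97 (136 counts), above 7.50 to 7.63. Whether tumors that share a number across groups are related is not given in the labels.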

How the results depend on the processing

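The 9 calls between the models over all groups fell to 8 in limma-voom (without Tek), to 7 after quantile normalization (without Tek and Angpt2) and rose to 10 with array weights or without 4T1 anti-PD-1 tumor 2 (with Cdh5); Flt4 had no value, and 8 were called (6 in untreated tumors), when the lowest 25% of genes were left out. In untreated tumors 5 to 7 genes were called when single tumors were left out, with 5 without 4T1 tumor 4, and 6 in limma-voom and when only the compared groups were fitted (without Kdr). No alternative called any of the 10 in a treatment comparison, although counts over all genes moved. Chitin-containing groups in 4T1, with 0 genes called, had 297 with array weights and 58 with all 8 groups in the fit; in 66cl4 they had 185 with array weights, 6 without the lowest 25% of genes, 1 with all groups and 16 with the replicate block. Anti-PD-1 in 4T1 had 960 with array weights and 60 with all groups in the fit, and chitin + anti-PD-1 in 4T1 had 3 with all groups and 1 with the block. In 66cl4 the block gave 2 for chitin and 7 for chitin + anti-PD-1. The 14 genes with unequal chitin differences became 1004 with array weights, 8 without the lowest 25%, 39 after quantile normalization and 104 with the block, and the 0 of anti-PD-1 became 331 with array weights. The cause was not tested. Leaving out single tumors gave 0 to 1 gene (chitin, 4T1), 0 to 80 (anti-PD-1, 4T1; 80 without anti-PD-1 tumor 2), 0 to 269 (chitin, 66cl4; 269 without untreated tumor 3), 0 to 25 (chitin against untreated, 66cl4; 25 without untreated tumor 3), 0 to 3 (chitin + anti-PD-1, 66cl4; 3 without untreated tumor 4), 0 to 677 (unequal chitin differences; 677 without 4T1 anti-PD-1 tumor 2) and 0 to 86 (unequal anti-PD-1 differences; 86 without 4T1 anti-PD-1 tumor 2).

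Small differences that did not pass changed sign. In the 4T1 chitin comparison, Angpt2 turned to 0.0089 with array weights, 0.011 with median centring and 0.015 after quantile normalization, Eng to 0.024 with array weights and Cdh5 to -0.049 with the replicate block; in 66cl4 Tek turned to 0.020 at equal read depth. With single tumors left out, that 4T1 comparison ran from -0.16 to 0.19 for Cdh5, -0.12 to 0.0020 for Eng, -0.22 to 0.051 for Kdr, -0.039 to 0.19 for Tek, -0.031 to 0.15 for Vegfa, -0.15 to 0.047 for Vegfc and -0.10 to 0.075 for Angpt2, and the 66cl4 comparison from -0.020 to 0.020 for Tek. Vegfa in 4T1 with chitin + anti-PD-1 ran from -0.22 to 0.14. In untreated tumors, between the models, Cdh5 ran from -0.065 to 0.53 and Angpt2 from -0.019 to 0.27, both lowest without 4T1 tumor 4. The labels do not say whether the tumor number pairs tumors across groups. Of 39 tumors, 13 correlated best with tumors of their own number, out of 5 numbers, and whether this is more than chance gives was not tested. Median r of same-numbered tumors lay between -0.063 and 0.069, with single pairs up to 0.54. The block changed the call of none of the 10 genes, although it moved counts over all genes. Depth limits the weakly expressed genes, and Tek rested on 10 reads in 4T1 anti-PD-1 tumor 2.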
